A study of Mus musculus with 8 samples.

Results

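Imprinted genes are genes that a mammalian cell transcribes mainly from the copy of one parent. Here 45 genes known to be imprinted in the mouse, taken by symbol, were followed through 4 mouse fibrosarcoma cell lines. This set and the further gene lists below were chosen with earlier results of these data known. Their comparisons with all genes are therefore descriptive. Of these 45 genes, 42 had a row among the 18768 genes of the count table, while Ascl2, Zim1 and Kcnk9 had none and were not analysed here. The lines came from tumors raised in mice by subcutaneous methylcholanthrene, a chemical carcinogen, and each tumor was dissociated and passaged in culture until a stable line was obtained. Lines MC010 and MC011 were made from IRF8 KO mice and lines MC654 and MC659 from WT C57BL/6 mice, and RNA of untreated cultured cells was sequenced in 2 libraries per line. Each line is taken to stand for a single tumor, and the comparison of labels sets 4 libraries against 4 but only 2 lines against 2. The ages and sexes of the mice were not given in the sources used here, and neither was the strain of the IRF8 KO colony.

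Genomic imprinting is set in the germ line by DNA methylation at imprinting control regions, which stay methylated on the copy of one parent through development. Most imprinted genes lie in clusters in which a control region governs both paternally expressed protein-coding genes and maternally expressed non-coding RNAs, or the reverse. Many members act in fetal growth and placental function, and several are silenced in most adult tissues. The zinc finger protein ZFP57 binds methylated control regions through a motif of the letters TGCCGC and, like the related ZFP445, recruits TRIM28. The counts analysed here are totals per gene and do not tell which parental copy was transcribed.

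The promoters of 5 members that differed widely between the lines are shown first, as reference sequence and not as sequence of the lines. Their part in the differences was not tested. Of the 7 members with the widest spread of line means, the 5 shown passed 10 CPM, a unit explained below, in a library. The others, Nnat and Dio3, stayed under 3 CPM. RefSeq promoter windows on GRCm38.p6 matched 36 of the 45 genes, in 53 windows of 250 bases before a transcription start. Zrsr1, Dlk1, Rasgrf1, Grb10 and Peg3 were chosen after their values were seen and are printed 5′ to 3′, with CpG dinucleotides, the sites of DNA methylation, in capitals.
Zrsr1, chr11:22971755-22972004, plus strand, 8 CpG: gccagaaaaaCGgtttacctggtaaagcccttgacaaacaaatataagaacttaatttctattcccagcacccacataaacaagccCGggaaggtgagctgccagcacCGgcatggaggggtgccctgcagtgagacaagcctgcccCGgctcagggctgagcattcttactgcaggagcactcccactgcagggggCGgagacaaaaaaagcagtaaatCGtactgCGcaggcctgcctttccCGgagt
Dlk1, chr12:109452573-109452822, plus strand, 8 CpG: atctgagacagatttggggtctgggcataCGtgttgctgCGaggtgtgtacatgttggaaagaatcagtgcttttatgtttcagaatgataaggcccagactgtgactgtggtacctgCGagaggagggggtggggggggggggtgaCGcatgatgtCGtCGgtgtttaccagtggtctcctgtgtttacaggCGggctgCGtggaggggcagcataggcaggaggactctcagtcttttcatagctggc
Rasgrf1, chr9:89909525-89909774, plus strand, 21 CpG: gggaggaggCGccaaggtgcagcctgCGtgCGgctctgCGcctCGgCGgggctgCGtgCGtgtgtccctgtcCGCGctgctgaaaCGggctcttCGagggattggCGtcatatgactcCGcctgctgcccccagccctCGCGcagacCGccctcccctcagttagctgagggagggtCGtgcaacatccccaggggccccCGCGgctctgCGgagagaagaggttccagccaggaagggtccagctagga
Grb10, first start, chr11:12037421-12037670, minus strand, 40 CpG: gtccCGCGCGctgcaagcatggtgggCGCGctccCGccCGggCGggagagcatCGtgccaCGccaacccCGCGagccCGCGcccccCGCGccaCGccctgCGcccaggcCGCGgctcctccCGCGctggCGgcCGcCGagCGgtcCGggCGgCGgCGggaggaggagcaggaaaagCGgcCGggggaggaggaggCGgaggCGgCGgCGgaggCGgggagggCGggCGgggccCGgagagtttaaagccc
Grb10, second start, chr11:12027972-12028221, minus strand, 8 CpG: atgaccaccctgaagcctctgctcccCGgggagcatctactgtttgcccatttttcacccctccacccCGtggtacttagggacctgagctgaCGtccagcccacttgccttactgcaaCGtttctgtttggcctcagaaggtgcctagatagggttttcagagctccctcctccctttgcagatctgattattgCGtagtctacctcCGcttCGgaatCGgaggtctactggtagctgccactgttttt
Peg3 and Usp29 start on opposite strands from a shared gap of 146 bases, which holds 5 CpG and was read on the strand of Peg3.
Peg3, chr7:6730432-6730577, minus strand, 5 CpG: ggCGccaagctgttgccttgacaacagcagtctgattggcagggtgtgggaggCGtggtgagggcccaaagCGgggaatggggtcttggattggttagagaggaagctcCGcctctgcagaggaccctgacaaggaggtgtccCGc
Over the 53 windows of imprinted genes the median was 12 CpG, against 6 over all 32851 windows of the table. The letters TGCCGC on either strand were found in 9 of the 53 windows (17%) and in 8.68% of all windows. None of the 6 sequences printed above held them. Windows of a gene with several starts overlap or share a locus, so they are no independent samples.

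The 8 libraries held between 74063616 and 116206078 counts, and a count of 3, taken as the floor of a library, corresponded to between 0.0262 and 0.0408 CPM (counts per 1000000 after TMM scaling). Irf8, the targeted gene, went against its labels, with 442 and 347 counts in MC010, 32 and 10 in MC011, 1 and 2 in MC654, and 1 and 0 in MC659, and the lines are therefore named by their labels. The table counts whole genes and does not show which exons of Irf8 were read. The mesenchymal markers, 8 of 8 with a row, summed to between 8734 and 9668 CPM in the KO-labelled libraries and to between 13598 and 14936 CPM in the WT-labelled ones, so the labelled soft tissue sarcoma carried the markers of its tissue. The lower sum of the KO-labelled libraries was carried by Fn1, fibronectin, at 1141 to 2110 CPM against 7778 to 8131 CPM. Of the 8, Pdgfra, S100a4 and Thy1 were called higher in the KO-labelled libraries and Fn1 lower, with a median log2 difference of 0.50. Endothelial markers summed to at most 0.788 CPM in any library, and the 4 of 6 hematopoietic markers with a row to between 5.72 and 11.4 CPM, lower in the KO-labelled (at most 7.37 CPM) than in the WT-labelled libraries (at least 9.67 CPM). Most of that sum was Cd68, a lysosomal protein of macrophages, at 5.25 to 10.1 CPM, with Csf1r at 0.245 to 1.80 CPM and Ptprc and Cd79a at most at 0.177 and 0.190 CPM. Of the keratins of simple epithelia, Krt8 was at 293 and 274 CPM in MC010 and 1.31 and 1.28 CPM in MC011, and Krt18 at 271 and 256 CPM in MC010 and 30.4 and 32.4 CPM in MC011. The WT-labelled libraries lay between these lines, at 19.4 to 39 CPM for Krt8 and 77.3 to 109 CPM for Krt18. The other epithelial markers, Cdh1 and Epcam, were called in the other direction, at no more than 1.19 CPM in any library (log2 -4.72 ± 0.91 and -1.54 ± 0.40 for MC010 against MC011). Myod1, a transcription factor of skeletal muscle, was at 2.45 and 2.77 CPM in MC010, without a count in MC011 and at 0.0353 to 0.136 CPM in the WT-labelled libraries. Of the other muscle markers, Des was at 0.28 and 0.299 CPM in MC010 and without a count in MC011, and Myog had no row. Acta1 was highest in the WT-labelled libraries, at 0.7 to 1.05 CPM, with 0.507 and 0.449 CPM in MC010 and 0.0518 and 0.0253 CPM in MC011. The part of these other differences between MC010 and MC011 in the results below was not tested.

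Imprinted genes spread widely over the 4 lines, although MC654 and MC659 mostly lay close to each other. The highest and lowest line means differed by a median of 2.17 on the log2(CPM + 0.05) scale over the 42 genes, against 0.83 over all 18768 genes. A spread of more than 4-fold was seen in 21 of the 42 (50%) and in 17% of all genes. The widest spreads were those of Grb10 (10.03), Zrsr1 (8.19), Peg3 (7.56), Nnat (5.86), Dio3 (5.76), Rasgrf1 (5.38) and Dlk1 (5.14). At the other end, Gnas spanned 0.13, Tssc4 0.23 and H13 0.27 on the same scale. The spread was not shared evenly by the lines. In a fit with 1 group per line and no filter on low counts, the sizes of the log2 differences were compared. Between MC654 and MC659 their median was 0.22 over the 42 genes (0.17 over all genes). Between MC010 and MC011 it was 1.59 (0.51 over all genes), or 1.38 with 4 genes set to their lower bound. Since the cells were sequenced in bulk, fewer cells that transcribe a gene and less RNA per cell cannot be told apart.

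**Figure D1:**
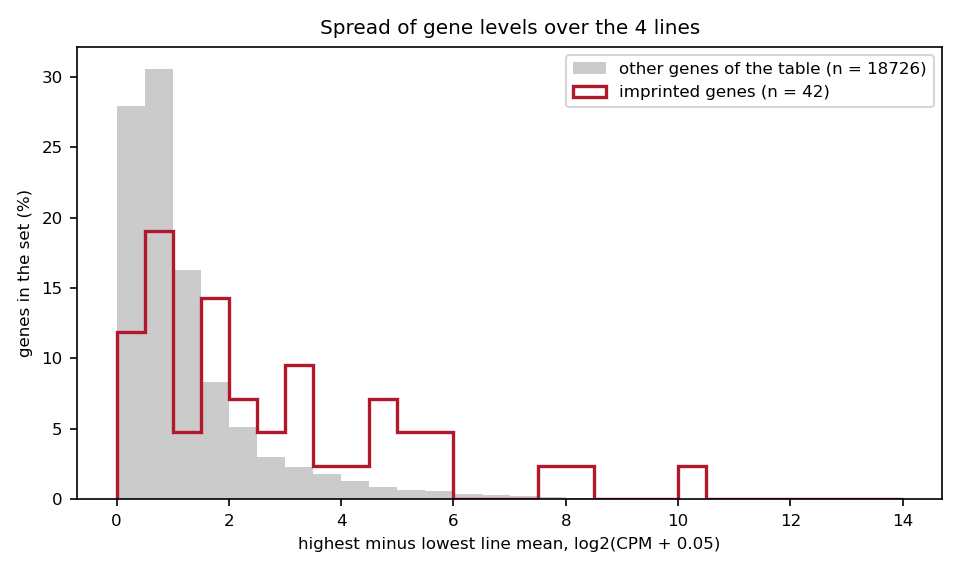
Histogram of the spread of each gene over the 4 lines, as the highest minus the lowest line mean of log2(CPM + 0.05) (x axis), with the share of genes in each bin in percent (y axis), for the 42 imprinted genes (red outline) and the other genes of the table (grey). The imprinted genes reach further to the right, with a median of 2.17 against 0.83 over all genes.

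**Figure D2:**
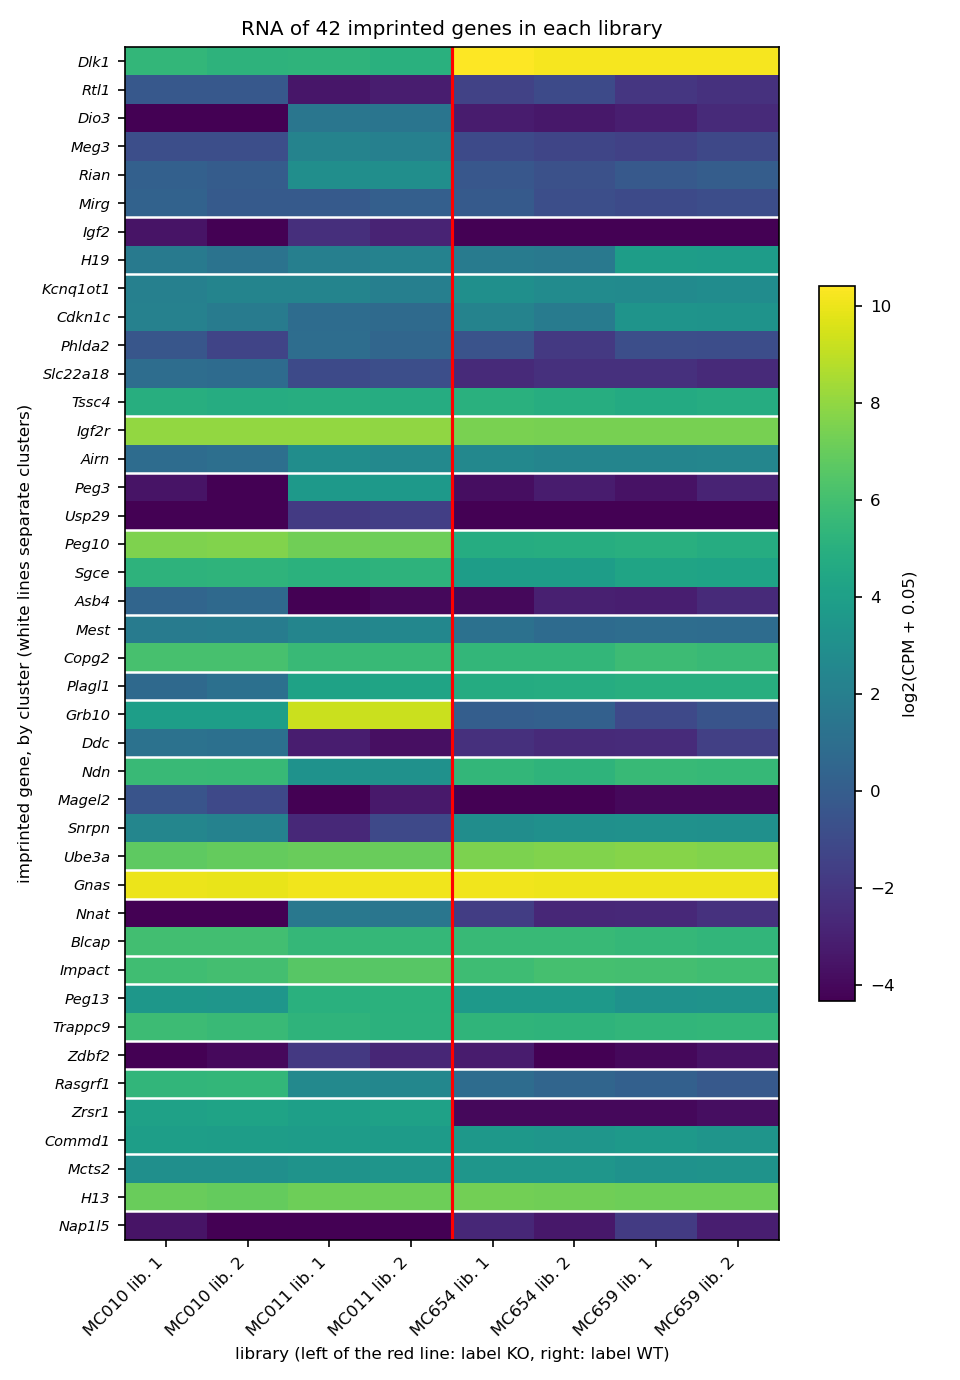
Heat map of log2(CPM + 0.05) (colour scale) of the 42 imprinted genes (rows, grouped by cluster between white lines) in the 8 libraries (columns, label KO left of the red line and label WT right of it). Zrsr1 and Dlk1 split the libraries by label, and Grb10, Peg3, Nnat, Dio3, Rasgrf1, Snrpn and Plagl1 separate MC010 from MC011. Of the latter genes, Grb10, Rasgrf1, Snrpn and Plagl1 also split the libraries by label.

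Between the labels, 34 of the 42 genes passed the filter on low counts. A gene was called where its adjusted p was under 0.05 and its log2 difference exceeded 0.59 in either direction. Higher in the KO-labelled libraries were 10 imprinted genes, Meg3, Rian, Slc22a18, Igf2r, Peg10, Sgce, Mest, Grb10, Rasgrf1 and Zrsr1, where 13.7% of all genes tested were called higher. Lower were 3, Dlk1, Kcnq1ot1 and Ube3a, where 8.72% of all genes tested were called lower. Of the 34 genes tested, 17 are usually transcribed from the paternal and 16 from the maternal copy, and in 1 the copy depends on the transcript. Of the 10 higher genes, 5 are paternal and 5 maternal, near the make-up of the set, and of the 3 lower genes 2 are paternal and 1 is maternal. Over the 34 genes tested, the median log2 difference was 0.36 (0.02 over all genes) and the median size of the difference was 1.08 (0.36 over all genes). Over all 42 genes, fitted without a filter, the median log2 difference was 0.68 (0.04 over all genes). The median size was then 1.30 (0.43 over all genes), or 1.25 with the 2 genes without any count in the WT-labelled lines set to their lower bound. All 4 KO-labelled libraries lay above all 4 WT-labelled ones in 11 of the 42 genes (26.2%) and in 19.3% of the table. They lay below them in 6 of the 42 genes (14.3%) and in 17.6% of the table.

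These calls rest on 4 tumors. With the 2 libraries of each line summed, 2 lines against 2, edgeR called 0 of 38 imprinted genes tested, 10 had an unadjusted p under 0.05 and the smallest adjusted p was 0.051. On the same sums 0 of 16927 genes were called in all, and 3658 had an unadjusted p under 0.05. DESeq2 on the libraries called 16 imprinted genes higher and 6 lower. With the line as a random effect in limma-voom, the calls of Dlk1, Zrsr1, Peg10, Sgce, Igf2r and Ube3a held, and those of the 7 other genes did not, with an adjusted p from 0.055 for Mest to 0.33 for Grb10.

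The lines of a label were then compared with each other, in a fit with 1 group per line that kept 39 of the 42 genes. Its p-values measure the spread between the 2 libraries of a line, which come from a single tumor. Dio3, Peg3, Usp29, Asb4 and Magel2, not tested between the labels, passed its filter only through the line in which they were high. Their p-values in this fit are therefore no separate support for that line being high. MC010 and MC011 differed in 22 imprinted genes, 9 higher and 13 lower in MC010, where 32.6% of all genes tested were called. MC654 and MC659 differed in 4, Grb10, Rasgrf1, H19 and Cdkn1c, where 4.58% of all genes were called. Against the mean of the WT-labelled lines, 13 imprinted genes were higher in MC010 (20.6% of all genes) and 10 lower (16.5%). In MC011, 18 were higher (18.4% of all genes) and 10 lower (12.9%). The last pair of comparisons share the WT-labelled libraries and are given side by side for that reason only.

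**Figure D3:**
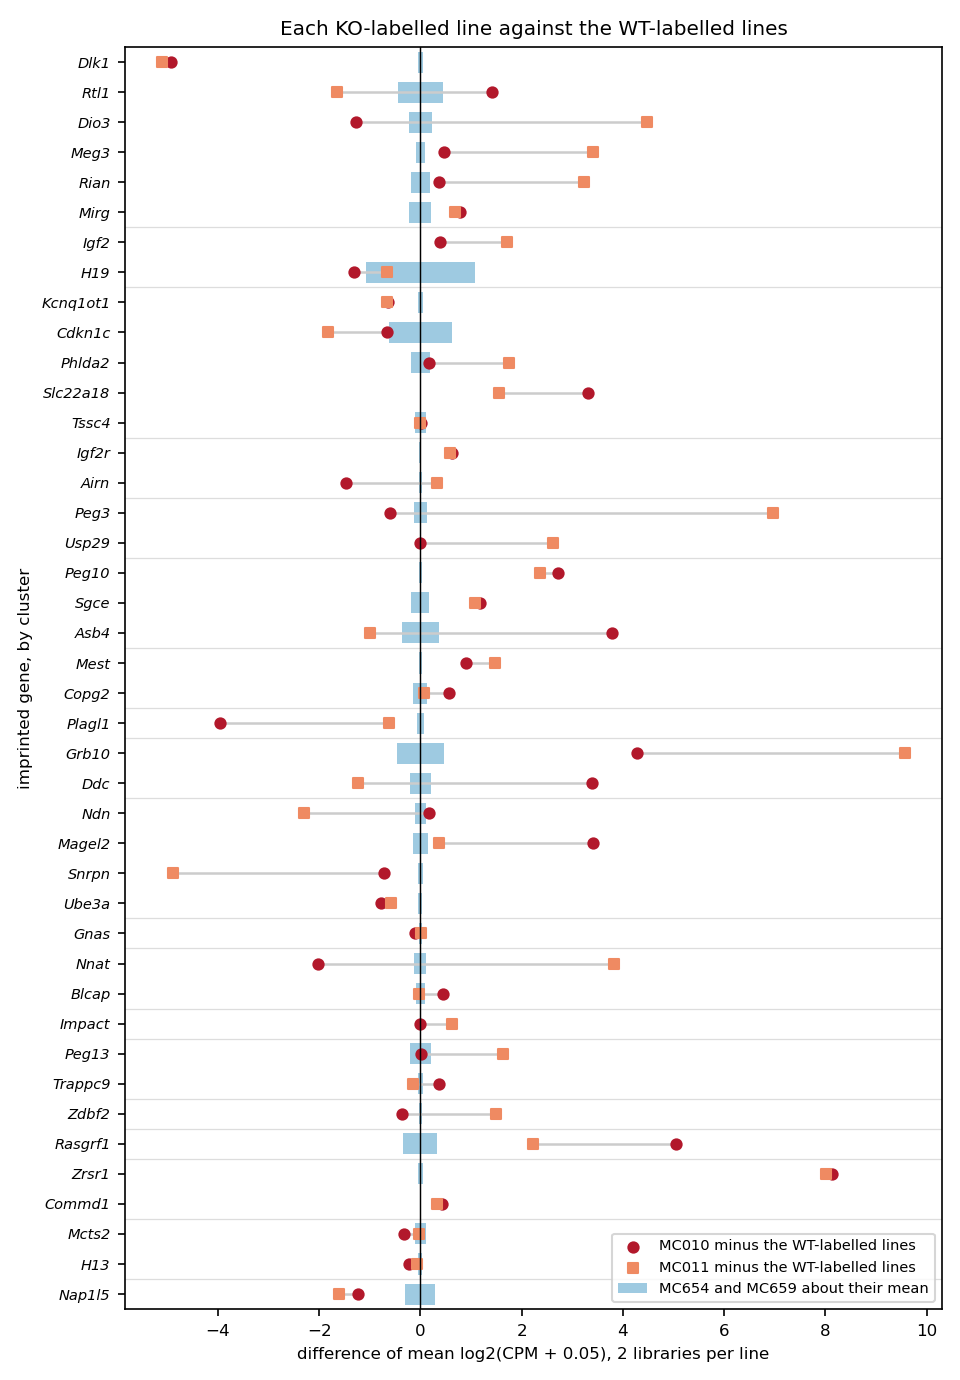
Difference of the mean log2(CPM + 0.05) of MC010 (circles) and MC011 (squares) from the mean of the WT-labelled lines (x axis) for the 42 imprinted genes (y axis, by cluster), with blue bars that span MC654 and MC659 about their mean and 2 libraries per line. Dlk1 and Zrsr1 have both symbols together and far from 0, and Dio3, Nnat, Asb4, Ddc and Rtl1 have them on opposite sides.

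Zrsr1 and Dlk1 were the members that separated the labels most clearly. Zrsr1 (ENSMUSG00000044068, chromosome 11 of mm10, 22972005 to 22976496, plus strand) is a retrogene for a splicing factor of the U2AF family, usually transcribed from the paternal copy, that lies within Commd1 on the opposite strand. It had 1959 and 1394 counts in MC010 and 1546 and 1346 in MC011, but 1 and 1 in MC654 and 1 and 2 in MC659. The KO-labelled libraries lay between 16.0 and 18.9 CPM and the WT-labelled ones at or under the floor. Over the libraries of each label the ratio was 1191 (95% counting interval 510 to 3670), and the difference had an adjusted p of 2.7e-07. MC010 and MC011 did not pass the threshold for a difference from each other (log2 difference 0.13 ± 0.09, SE). Commd1, which acts in copper handling and NF-kappaB turnover, is the host gene and was present in all libraries, at 13.9 to 15.4 CPM in those labelled KO and 10.3 to 12.3 CPM in those labelled WT (log2 0.38 ± 0.09, below the size threshold). The 2 genes share 412 exon bases on opposite strands. Zrsr1 is related in sequence to its parent gene on chromosome X, which was not analysed here, and how reads that match both were counted is uncertain.

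Dlk1 (ENSMUSG00000040856, chromosome 12, 109452823 to 109463336) encodes a membrane ligand related to the Notch ligands that marks preadipocytes and progenitor cells. Its level was 44.3 and 36.8 CPM in MC010 and 38.9 and 33.4 CPM in MC011. In MC654 it was 1378 and 1182 CPM and in MC659 1177 and 1222 CPM, so the groups were far from overlapping. The mean was 38.4 ± 4.56 CPM (SD, n = 4) in the KO-labelled and 1240 ± 94.5 CPM (SD, n = 4) in the WT-labelled libraries, a 32.3-fold lower level (log2 -5.01 ± 0.11, adjusted p = 3.2e-07). Per length of exon, Dlk1 was the most abundant member in the WT-labelled lines, at 226 and 212 RPKM, ahead of Gnas at 98.4 and 94.8 RPKM.

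**Figure D4:**
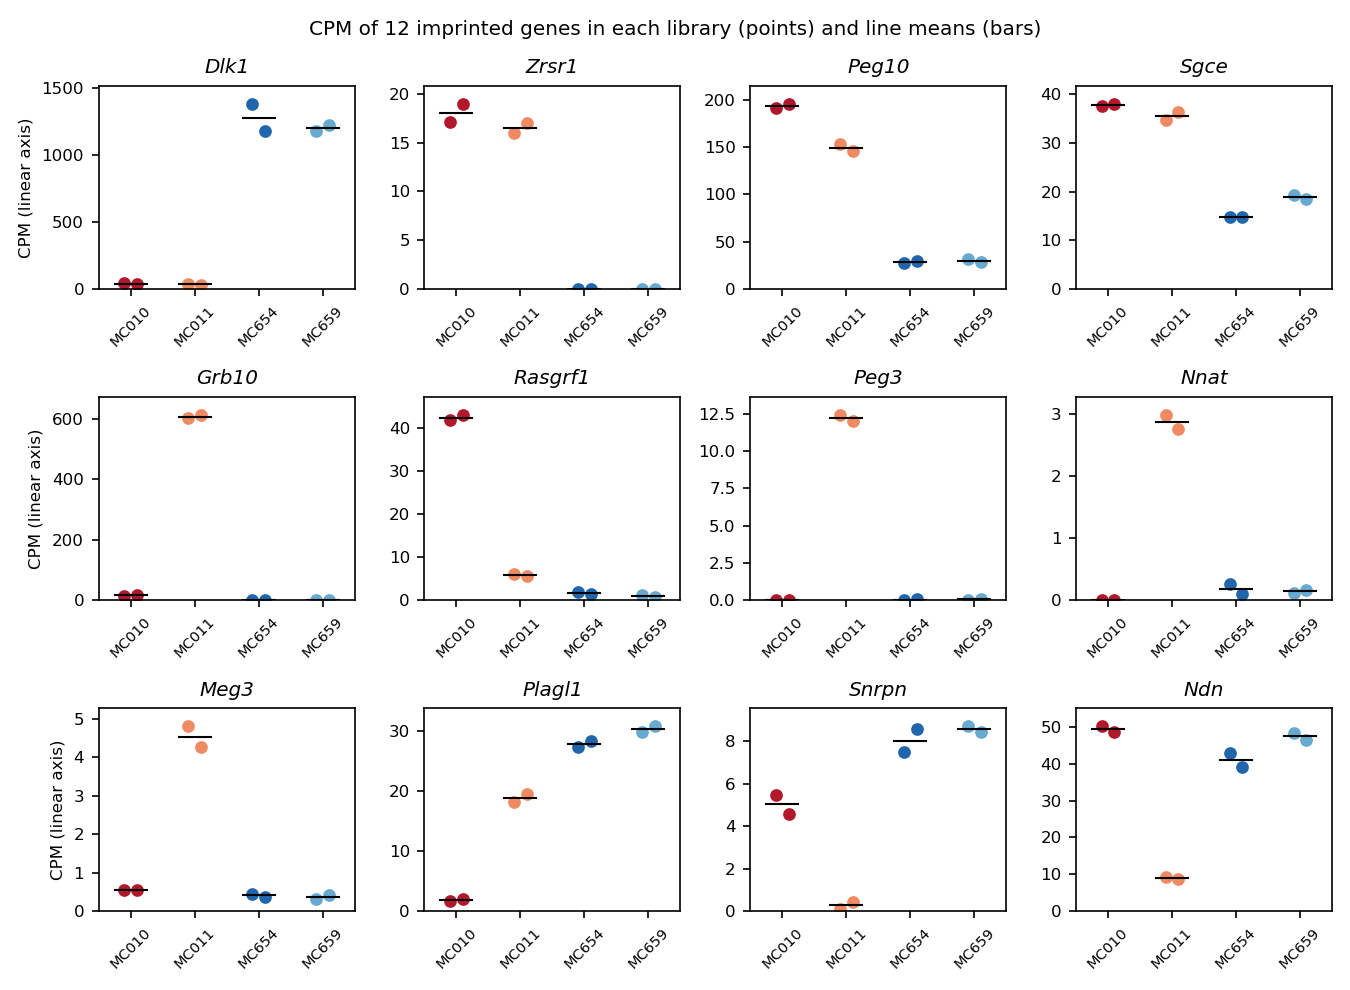
CPM on linear axes from 0 of 12 imprinted genes in each library (points, 2 per line) with line means (bars). Dlk1, Zrsr1, Peg10 and Sgce split by label. The highest line is MC011 for Grb10, Peg3, Nnat and Meg3 and MC010 for Rasgrf1. The lowest line is MC010 for Plagl1 and MC011 for Snrpn and Ndn. In Grb10, Meg3, Rasgrf1, Plagl1 and Snrpn the libraries of the labels do not overlap either.

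The rest of the Dlk1-Dio3 cluster on chromosome 12 did not follow Dlk1. Meg3, the maternally expressed non-coding RNA of the cluster, was at 4.80 and 4.26 CPM in MC011 and at 0.542 and 0.544 CPM in MC010, with 0.306 to 0.443 CPM in the WT-labelled libraries. Rian, a host of small nucleolar RNAs, was at 7.79 and 7.69 CPM in MC011, 1.11 and 0.911 CPM in MC010 and 0.588 to 0.956 CPM in the WT-labelled libraries. MC010 was below MC011 in both, by a log2 difference of -3.06 ± 0.23 for Meg3 and -2.92 ± 0.18 for Rian, and did not pass the threshold against the WT-labelled lines. Between the labels Meg3 had an adjusted p of 0.027 and Rian of 0.032. With MC011 left out their log2 differences were 0.49 and 0.36, and without any single library of MC011, MC654 or MC659 the adjusted p was 0.055 to 0.077 for Meg3 and 0.067 to 0.088 for Rian. Mirg, a host of microRNAs further along the cluster, was at 1.18 and 0.856 CPM in MC010, 0.840 and 1.05 CPM in MC011, 0.839 and 0.529 CPM in MC654, and in MC659 at 0.453 and 0.511 CPM. Its log2 difference from the WT-labelled lines was 0.84 ± 0.27 in MC010 and 0.71 ± 0.27 in MC011. Neither held against every left-out library: the first had an adjusted p of 0.21 without the first library of MC010, and the second of 0.22, 0.099 and 0.074 without the second of MC011, the second of MC654 and the first of MC659.

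Dio3 and Rtl1, protein-coding genes of the same cluster, had opposite orders in MC010 and MC011. Dio3, which inactivates thyroid hormone, had 265 and 203 counts in MC011 and none in either library of MC010, with 5, 4, 6 and 11 in MC654 and MC659. Dio3 was at least 79.4-fold higher in MC011 than in MC010 (adjusted p = 2.2e-09) and 36.5-fold higher than in the WT-labelled lines (adjusted p = 6e-10). It passed the filter only through MC011. Rtl1, a retrotransposon-derived gene needed by placental capillaries, was at 0.786 and 0.802 CPM in MC010, 0.0415 and 0.0633 CPM in MC011, 0.324 and 0.447 CPM in MC654, and in MC659 at 0.204 and 0.167 CPM. MC010 was thus the highest line and MC011 the lowest (log2 3.91 ± 0.52, adjusted p = 5.7e-06), the reverse of Dio3. Begain, a gene next to Dlk1 outside the core cluster, was at 0.707 to 4.54 CPM in the KO-labelled and 13.5 to 16.5 CPM in the WT-labelled libraries (log2 -2.54 ± 0.56, adjusted p = 0.0088).

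Grb10 had the widest spread of all members. Grb10 (chromosome 11, 11930508 to 12038683) encodes an adaptor that dampens signalling by the insulin and insulin-like growth factor receptors. It was at 605 and 612 CPM in MC011, 15.3 and 15.6 CPM in MC010, 1.03 and 1.08 CPM in MC654, and in MC659 at 0.419 and 0.667 CPM. The lines did not overlap, and each step was called: MC011 over MC010 by 39.2-fold (adjusted p = 2e-18), MC010 over the WT-labelled lines by 20.4-fold (adjusted p = 2.3e-17) and MC654 over MC659 by 1.94-fold (adjusted p = 0.0012). Ddc, its neighbour on the same chromosome and the enzyme that makes dopamine and serotonin from their precursors, had another order. Ddc was at 2.28 and 2.15 CPM in MC010, 0.0622 and 0.0253 CPM in MC011, 0.156 and 0.118 CPM in MC654, and in MC659 at 0.125 and 0.300 CPM. It was higher in MC010 than in MC011 (log2 5.57 ± 0.49, adjusted p = 3.9e-08), opposite to Grb10, and lower in MC011 than in the WT-labelled lines (log2 -1.88 ± 0.56, adjusted p = 0.0081, and 0.082 without the second library of MC011). Cobl, which lies beyond Grb10 and shapes actin filaments, was at 14.6 and 15.8 CPM in MC010, 6.74 and 5.87 CPM in MC011, 0.0959 and 0.271 CPM in MC654, and in MC659 at 2.03 and 1.72 CPM.

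Peg3 and Usp29 were high in a single line. Peg3 (chromosome 7, 6703892 to 6730431, minus strand), a zinc finger protein of the paternal copy, had 1200 and 952 counts in MC011 and at most 8 in any other library, or 12.4 and 12.0 CPM against 0 to 0.0889 CPM. Usp29, a deubiquitinase gene that starts on the other side of the printed gap, had 23 and 22 counts in MC011 and no count in the 6 other libraries. Peg3 was 235-fold higher in MC011 than in the WT-labelled lines (log2 7.88 ± 0.23), and Usp29 was at least 7.46-fold higher. Both genes passed the filter only through MC011, so their adjusted p (1.8e-14 for Peg3 and 5.8e-05 for Usp29) are no separate support. Per length of exon, Peg3 reached 0.919 RPKM and Usp29 0.0143 RPKM in MC011.

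Rasgrf1 (chromosome 9, 89909908 to 90026977), an activator of Ras that is usually transcribed from the paternal copy, was the counterpart in MC010. It was at 41.9 and 43.0 CPM in MC010, 6.17 and 5.68 CPM in MC011, 1.82 and 1.36 CPM in MC654, and in MC659 at 1.12 and 0.834 CPM. The 4 lines did not overlap. MC010 exceeded MC011 by a log2 of 2.84 ± 0.11 (adjusted p = 6.7e-13), both exceeded the WT-labelled lines (5.09 ± 0.10 and 2.25 ± 0.11), and MC654 exceeded MC659 (0.71 ± 0.17, adjusted p = 0.012). The last difference was 0.48 without the first library of MC654 and 0.50 without the second of MC659, each with an adjusted p of 0.16.

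Peg10 and Sgce, which share a promoter region on chromosome 6, were higher in both KO-labelled lines. Peg10 (4747306 to 4760517), a retrotransposon-derived gene needed for the placenta, was at 191 and 195 CPM in MC010, 153 and 146 CPM in MC011, 27.6 and 29.4 CPM in MC654, and in MC659 at 31.7 and 28.2 CPM. Sgce, a subunit of the sarcoglycan complex, was at 37.5 and 37.9 CPM in MC010, 34.8 and 36.4 CPM in MC011, 14.8 in each library of MC654 and 19.4 and 18.5 CPM in MC659. The labels did not overlap in either gene. The log2 difference was 2.55 ± 0.11 for Peg10 (adjusted p = 5.1e-06) and 1.12 ± 0.11 for Sgce (adjusted p = 0.00017). Of their neighbours, Casd1 (log2 0.90 ± 0.11, adjusted p = 0.00059) and Ppp1r9a (2.25 ± 0.17, adjusted p = 5.7e-05) were also higher, and Tfpi2 was lower (-3.97 ± 0.52, adjusted p = 0.00077). Asb4, a subunit of ubiquitin ligases, had 154 and 118 counts in MC010, 0 and 1 in MC011, 1 and 6 in MC654 and 6 and 11 in MC659. MC010 stood alone, at 254 times the level of MC011 (95% counting interval 45.2 to 10063, adjusted p = 2.4e-07), and the gene passed the filter only through MC010. The Asb4 call of MC011 against the WT-labelled lines (adjusted p = 0.019) rested on a single count in MC011 and 24 in the WT-labelled lines, and the adjusted p was 0.16 without the first library of MC011 and 0.17 without the second of MC654.

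Plagl1 (chromosome 10, 13060504 to 13131694), a zinc finger protein that restrains growth, was low in MC010. It was at 1.61 and 2.09 CPM in MC010, 18.2 and 19.6 CPM in MC011, 27.3 and 28.4 CPM in MC654, and in MC659 at 29.9 and 30.8 CPM. MC010 was 16.0-fold below the WT-labelled lines (log2 -4.00 ± 0.10, adjusted p = 1.1e-15). MC011 was below them too, but by 1.54-fold (log2 -0.63 ± 0.07, adjusted p = 9.5e-07, and -0.57, under the size threshold, without the first library of MC011), and the difference between MC010 and MC011 was called (adjusted p = 6.8e-14).

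The Snrpn cluster on chromosome 7 is the mouse counterpart of the human Prader-Willi and Angelman region. In MC011, 2 of its 4 members, Snrpn and Ndn, were called lower than in the WT-labelled lines (12.9% of all genes). Ube3a lay just under the size threshold there (log2 -0.57 ± 0.05, adjusted p = 3.9e-08), and Magel2 was not called. In MC010, 2 of the 4 were also called lower (16.5% of all genes). These were Snrpn (log2 -0.71 ± 0.16, adjusted p = 0.00081) and Ube3a (-0.78 ± 0.05, adjusted p = 6.1e-10). Snrpn, a protein of small nuclear ribonucleoproteins, was at 0.114 and 0.430 CPM in MC011, 5.46 and 4.59 CPM in MC010, 7.47 and 8.58 CPM in MC654, and in MC659 at 8.69 and 8.44 CPM. Ndn, which encodes necdin, a growth suppressor of neurons, was at 9.25 and 8.59 CPM in MC011, 50.1 and 48.5 CPM in MC010, 43.0 and 39.1 CPM in MC654, and in MC659 at 48.4 and 46.4 CPM. Both genes lay lower in both libraries of MC011 than in any other, by a log2 of -5.00 ± 0.26 for Snrpn (adjusted p = 2.7e-11) and -2.31 ± 0.07 for Ndn (adjusted p = 9.8e-15) against the WT-labelled lines. Snhg14, the long non-coding RNA that runs through the cluster and is antisense to Ube3a at its end, was at 0.0518 and 0.0380 CPM in MC011, 2.21 and 2.28 CPM in MC010 and 6.12 to 10.0 CPM in the WT-labelled libraries (log2 -7.51 ± 0.27 for MC011 against these, adjusted p = 2.8e-13). Ube3a, a ubiquitin ligase that is imprinted in neurons, was at 111 and 121 CPM in MC010, 133 and 135 CPM in MC011 and 186 to 215 CPM in the WT-labelled libraries. It was lower in the KO-labelled libraries (log2 -0.67 ± 0.08, adjusted p = 0.00045). Magel2, a regulator of endosomal protein recycling, had 75 and 32 counts in MC010, 0 and 4 in MC011, and 0, 0, 1 and 1 in MC654 and MC659. Its level in MC010 was 98.6 times that of the WT-labelled lines (95% counting interval 26.6 to 825, adjusted p = 3.9e-06), and it passed the filter only through MC010. Snrpn shares 589 of its 2159 exon bases with the annotated gene Gm38393 on the same strand, and reads from these bases cannot be told apart.

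On distal chromosome 7, H19 and Cdkn1c separated the WT-labelled lines from each other. H19, a growth-limiting non-coding RNA of the maternal copy, was at 14.8 and 14.3 CPM in MC659, 3.45 and 3.04 CPM in MC654, 3.16 and 2.37 CPM in MC010 and 4.04 and 4.63 CPM in MC011. Cdkn1c, the cyclin-dependent kinase inhibitor p57, was at 10.0 and 9.46 CPM in MC659, 4.76 and 3.46 CPM in MC654, 4.43 and 3.53 CPM in MC010 and 1.82 and 1.66 CPM in MC011. MC659 was above MC654 in H19 by 4.48-fold (adjusted p = 2.1e-08) and in Cdkn1c by 2.37-fold (adjusted p = 3e-05). Their log2 differences between the labels, -1.32 ± 0.57 for H19 and -1.27 ± 0.46 for Cdkn1c, did not pass (adjusted p = 0.10 and 0.059), and MC654 lay in the range of the KO-labelled libraries in H19. Against the mean of the WT-labelled lines, MC010 and MC011 were called lower in both genes, for H19 at -1.29 ± 0.13 and -0.67 ± 0.12 and for Cdkn1c at -0.66 ± 0.14 and -1.86 ± 0.15. Of these, H19 in MC011 fell under the size threshold without the first library of MC011 (-0.57), and Cdkn1c in MC010 without the second library of MC010 (-0.51) or the first of MC654 (-0.53). MC010 lay below MC011 in H19 by -0.62 ± 0.15, and by -0.45 without the second library of MC010 and -0.52 without the second of MC011. Igf2, the fetal growth factor next to H19, had 4 and 0 counts in MC010, 14 and 7 in MC011 and none in the WT-labelled libraries, at least 3.37-fold higher in MC011 than these. Igf2 did not pass the filter on low counts and was not tested.

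In the Kcnq1ot1 cluster, the non-coding RNA and its targets had different orders. Kcnq1ot1, transcribed from the paternal copy antisense to Kcnq1, was at 4.16 and 5.07 CPM in MC010, 5.01 and 4.10 CPM in MC011 and 6.67 to 8.04 CPM in the WT-labelled libraries (log2 -0.65 ± 0.14, adjusted p = 0.0068). For single lines against the WT-labelled ones the difference was -0.65 in MC010 and -0.66 in MC011, and -0.52 and -0.53, under the size threshold, without the first library of MC010 and the second of MC011. Slc22a18, a membrane transporter, was at 1.91 and 1.71 CPM in MC010, 0.456 and 0.544 CPM in MC011 and 0.120 to 0.159 CPM in the WT-labelled libraries (log2 3.05 ± 0.54, adjusted p = 0.0034). Phlda2, a restraint on placental growth, was at 0.725 and 0.353 CPM in MC010, 1.87 and 1.42 CPM in MC011, 0.647 and 0.224 CPM in MC654, and in MC659 at 0.544 and 0.500 CPM. Phlda2 was higher in MC011 than in the WT-labelled lines (log2 1.78 ± 0.33, adjusted p = 0.00019) while MC010 overlapped them. Kcnq1, a potassium channel and the host gene, was at 0 to 0.0437 CPM in the KO-labelled and 0.578 to 0.941 CPM in the WT-labelled libraries (log2 -4.99 ± 0.61, adjusted p = 0.00056). Tssc4, at 25.4 to 32.7 CPM, was called in none of the 5 comparisons.

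Several members are nested in, or antisense to, another imprinted gene, and the plot of pairs sets the 2 genes of each beside each other. Nnat, a small membrane proteolipid of the paternal copy within an intron of Blcap, had 286 and 217 counts in MC011 and none in MC010, with 22, 9, 10 and 15 in MC654 and MC659. Nnat was at least 85.3-fold higher in MC011 than in MC010 (adjusted p = 4.6e-09) and 17.6-fold higher than in the WT-labelled lines (adjusted p = 6.2e-09). Blcap was at 42.0 to 62.5 CPM in all libraries, highest in MC010, where Nnat had no count. Peg13, a non-coding RNA within Trappc9, was at 32.6 and 34.2 CPM in MC011, 11.1 and 10.5 CPM in MC010, 12.5 and 12.2 CPM in MC654, and in MC659 at 8.98 and 9.61 CPM (log2 1.64 ± 0.06 for MC011 against the WT-labelled lines, adjusted p = 5.7e-13). Its host Trappc9, a subunit of a vesicle tethering complex, was at 35.6 to 54.8 CPM and lowest in MC011.

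Igf2r, the receptor that clears insulin-like growth factor II, was at 260 and 262 CPM in MC010, 263 and 248 CPM in MC011, 174 and 170 CPM in MC654, and in MC659 at 169 and 166 CPM. The labels did not overlap (log2 0.61 ± 0.04, adjusted p = 4.9e-05), but the size lay next to the threshold of 0.59. It was 0.57 with MC010 left out and 0.58 with MC659 left out. For MC011 against the WT-labelled lines it fell to the threshold or below it without the second library of MC010 (0.59), the first of MC011 (0.55), or the second of MC654 or MC659 (0.58 each). Airn, the antisense non-coding RNA that silences Igf2r on the paternal copy, was at 1.80 and 2.07 CPM in MC010, 7.54 and 6.15 CPM in MC011, 5.82 and 5.19 CPM in MC654, and in MC659 at 5.12 and 5.50 CPM. Airn was thus low in MC010 alone (log2 -1.49 ± 0.13 against the WT-labelled lines, adjusted p = 3.6e-08), while Igf2r differed between MC010 and MC011 by a log2 of 0.04 ± 0.04, which did not pass. Mest, a hydrolase-like protein of mesoderm, was at 3.51 and 3.62 CPM in MC010, 5.17 and 5.52 CPM in MC011 and 1.71 to 2.19 CPM in the WT-labelled libraries (log2 1.23 ± 0.21, adjusted p = 0.0025). Its antisense neighbour Copg2, a coatomer subunit with which it shares 912 exon bases, was at 43.1 to 71.6 CPM and was not called. The retrogene Mcts2, at 7.97 to 10.8 CPM, and its host H13, at 122 to 155 CPM, were called in no comparison. Whether the counting used the strand of the reads is not stated, so reads of antisense partners may have been counted for either gene or left out.

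**Figure D5:**
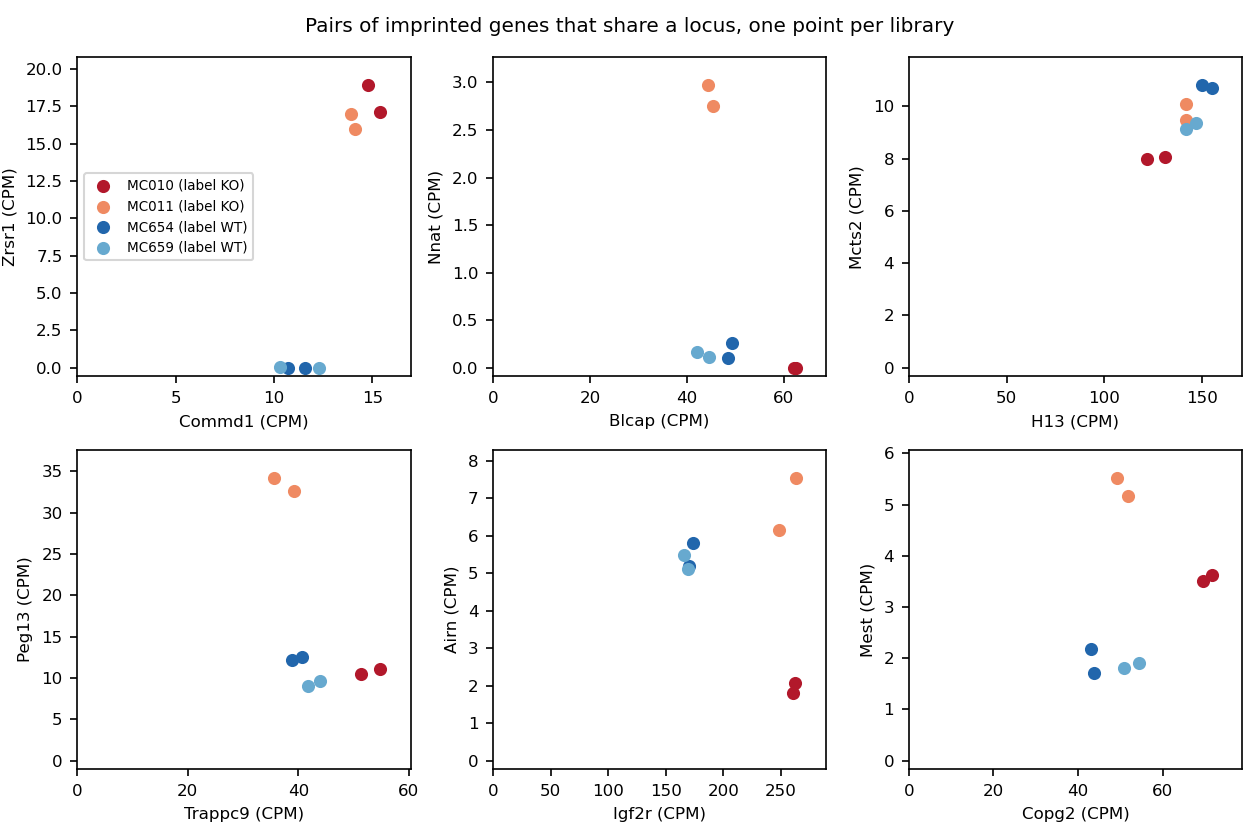
CPM of the nested or antisense gene (y axis) against its host or partner (x axis) in each of the 8 libraries (points, coloured by line), for 6 pairs on linear axes. Zrsr1 lies near 0 in the WT-labelled lines at 10.3 to 12.3 CPM of Commd1, and Nnat is at 0 in MC010, where Blcap is highest.

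Among the remaining members, Impact, an inhibitor of the translational stress kinase GCN2, was at 95.0 and 96.4 CPM in MC011 and at 58.6 to 66.4 CPM in the 6 other libraries (log2 0.62 ± 0.05 for MC011 against the WT-labelled lines, adjusted p = 2.1e-08, and 0.58 without the first library of MC654). Gnas, the stimulatory G protein subunit, whose transcripts differ in their parental origin, was at 977 to 1122 CPM and had no call. Zdbf2 and Nap1l5 had at most 22 counts in any library, did not pass the filter and were not tested. In all, 31 of the 42 genes (73.8%) were called in at least 1 of the 5 comparisons, against 46.8% of the 18768 genes of the table, and the 11 others were Igf2, Tssc4, Copg2, Gnas, Blcap, Trappc9, Zdbf2, Commd1, Mcts2, H13 and Nap1l5.

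Genes that set or maintain imprints were read beside the members. Of 18 genes for imprint maintenance and DNA methylation, 16 had a row and passed the filter, 1 was higher (6.25%, against 13.7% of all genes) and 0 lower (against 8.72%) by edgeR between the labels, and the median log2 difference was -0.10 (0.02 over all genes). DESeq2 called 1 of them higher and 0 lower, and 5 had an unadjusted p under 0.05 by edgeR. The gene called was Zfp57, the reader of methylated control regions, at 58.5 and 60.1 CPM in MC010, 31.8 and 34.9 CPM in MC011 and 24.1 to 25.9 CPM in the WT-labelled libraries (log2 0.91 ± 0.22, adjusted p = 0.012). For single lines against the WT-labelled ones, Zfp57 was called in MC010 (1.26 ± 0.05) and not in MC011 (0.43 ± 0.06). Between the labels, the next 5 by size were Dnmt3l (0.74 ± 0.50), Tet2 (-0.52 ± 0.08), Smchd1 (-0.48 ± 0.27), Tet1 (-0.45 ± 0.19) and Uhrf1 (0.35 ± 0.21). MC010 and MC011 differed in 6 of the 16 (37.5%), near the 32.6% of all genes. Smchd1, a silencer of imprinted clusters and of the inactive X, was at 91.4 and 94.7 CPM in MC011 and at 191 to 213 CPM in the other libraries. Dnmt3l, a cofactor of methylation in the germ line, was at 6.86 and 7.88 CPM in MC011 and at 1.58 to 3.27 CPM elsewhere. Uhrf1, which guides DNMT1 to replicated DNA, was at 510 and 483 CPM in MC010 and at 274 to 323 CPM elsewhere. Their part in the differences of the imprinted genes was not tested.

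Of 40 further genes that lie in or near imprinted regions, 29 had a row and 27 were tested between the labels, with 4 higher (14.8%, against 13.7% of all genes), 6 lower (22.2%, against 8.72%) and a median log2 difference of -0.17 (0.02 over all genes). DESeq2 called 4 higher and 9 lower, and 17 had an unadjusted p under 0.05 by edgeR. The 6 with the largest difference were Kcnq1, Tfpi2, Cobl, Snhg14, Slc38a4 and Begain, of which Snhg14 did not pass (adjusted p = 0.080). Slc38a4, an amino acid transporter that is imprinted in the placenta, was at 2.21 and 2.7 CPM in MC010, 14.8 and 14.1 CPM in MC011, 0.863 and 0.965 CPM in MC654, and in MC659 at 2.11 and 1.83 CPM, with MC010 just above MC659. Of 14 genes of the insulin-like growth factor axis, in which the products of Igf2, Igf2r and Grb10 act, 12 were tested, 7 were higher (58.3%, against 13.7% of all genes), 0 were lower (against 8.72%) by edgeR and the median log2 difference was 1.16 (0.02 over all genes). DESeq2 called 8 of the 14 higher and 0 lower, and 7 of the 12 had an unadjusted p under 0.05 by edgeR. Igfbp4, a binding protein of the growth factors, was at 907 to 1050 CPM in the KO-labelled and 110 to 147 CPM in the WT-labelled libraries (log2 2.95 ± 0.12, adjusted p = 3.1e-06). Igfbp3, another binding protein, was at 329 and 324 CPM in MC010, 7.82 and 9.54 CPM in MC011 and 1.38 to 2.49 CPM in the WT-labelled libraries. Igf2bp3 and Igf2bp1, which bind Igf2 messenger RNA, were highest in MC011, at 56.6 and 53.4 CPM and at 47.9 and 51.1 CPM. Igfbp5 (log2 2.87 ± 0.90, adjusted p = 0.038) and Irs1 (1.19 ± 0.27, adjusted p = 0.011) complete the 6 with the largest difference.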

How the data were processed

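RNA sequencing of 8 libraries from 4 cell lines was analysed. The authors aligned reads to mm10 with STAR and counted them per gene with HTSeq (2.7.3a and 0.11.2 in the submitters' processing notes, other versions in the paper), and deposited raw counts beside size-factor-scaled values and the columns of their own DESeq2 comparison (mean, log2 fold change, error, statistic, p-values), neither of which was used. The strand option of the counting was not given in the sources used here. The table holds no row under 20 counts in total.

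Members and lists were chosen with earlier results of these data known. Raw counts were fitted with edgeR 4.0.16 in R 4.3.3 (filterByExpr, TMM, robust quasi-likelihood), between labels (15153 genes) and with 1 group per line (16703 genes), and p-values were adjusted by Benjamini-Hochberg over every gene tested. Calls needed an adjusted p under 0.05 and a log2 difference beyond 0.59. The SE is the log2 difference divided by the root of its F statistic. RPKM used the union of exons in GENCODE M21. The floor was 3 counts per library, folds against groups without counts are lower bounds, and 95% intervals are exact binomial ones that cover counting error only. Members called in any comparison are given in every library, the others by range, and each list by counts and at most 6 genes with the largest change. Alternatives were DESeq2 1.42.0, upper-quartile scaling, no filter, no fold threshold, the library number as a block, left-out libraries and lines, line sums and limma 3.58.1 (voom) in which the line was a random effect. The fits were run on simulated counts with independent libraries, the same dispersion for every gene and no differences between tumors. That simulation cannot show how the comparison of labels behaves with 2 tumors per label. No 2 libraries agreed within sampling noise.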

Additional observations from a re-analysis of the deposited data

Results flagged for a closer look

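In 5 genes MC010 and MC011 were called in opposite directions against the WT-labelled lines. The difference between MC010 and MC011 was called too, which largely follows from opposite calls in the same fit and is no separate support. These 5 genes are 12.8% of the 39 imprinted genes tested, and 2.63% of the 16703 genes tested had such opposite calls, in comparisons that share the WT-labelled libraries. The log2 difference of MC010 minus MC011 was 3.91 for Rtl1 and 5.57 for Ddc, and Asb4 was 254 times higher in MC010. In the other direction, MC011 exceeded MC010 at least 79.4-fold in Dio3 and at least 85.3-fold in Nnat, both without a count in MC010. The adjusted p of these differences lay between 2.2e-09 and 5.7e-06 and measures the spread between libraries of a line. Dio3 and Asb4 passed the filter only through the line in which they were high. The lower calls rested on few counts, with 4 and 5 for Rtl1, 6 and 2 for Ddc and 0 and 1 for Asb4 in MC011. Against the WT-labelled lines Dio3 and Nnat were lower in MC010 by at least 2.22-fold and 4.85-fold. The lower calls of Asb4 (adjusted p = 0.16 or 0.17) and Ddc (0.082) were lost without a single library.

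In Nap1l5 the first library of MC010 stood apart from the other KO-labelled libraries, at 0.0349 CPM (4 counts) where the others had none. Chance flags about 1 in 20 groups in this way, a rate that need not hold where the other libraries have no count. The value is next to the floor of 3 counts.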

How the results depend on the processing

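The comparison of labels depended most on how lines were treated. Against 10 imprinted genes higher and 3 lower, DESeq2 gave 16 and 6, line sums 0 and 0, and limma-voom, in which the line was a random effect, 4 higher, with 3 lower. With MC010 left out 16 were higher and 9 lower. With MC011 left out 7 were lower, with MC654 left out 5 were higher, and with MC659 left out 3 were higher. Left-out libraries gave 8 to 13 higher and 3 to 4 lower. Between the lines, left-out libraries gave 22 to 23 for MC010 against MC011, 3 to 4 for MC654 against MC659, 22 to 25 for MC010 and 25 to 31 for MC011 against the WT-labelled lines. Without a threshold on the fold change, 10 genes in place of 4 differed between MC654 and MC659. No result changed direction under any alternative run.

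The replicate numbers did not pair the libraries (correlations of -0.0273 to 0.0552 between same-numbered deviations). A replicate block on the number left 9 genes higher and 3 lower in the KO-labelled libraries, Rian having an adjusted p of 0.054, and the counts between lines were 22, 4, 23 and 28. Igf2r fell to the size threshold or below it under upper-quartile scaling (0.59 between the labels, 0.58 in MC010 and 0.56 in MC011). By DESeq2, Snrpn in MC010 (adjusted p = 0.14) and Mirg in MC011 (0.074) were not called against the WT-labelled lines. Depth limits Igf2, Usp29, Zdbf2 and Nap1l5, whose counts were near the floor in most libraries. The causes were not tested.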
